A study of Bos taurus with 8 samples.

Results

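The glutathione transferases described here are 10 genes, GSTA1, GSTA4, GSTM1, GSTM3, GSTP1, GSTO1, GSTK1, MGST1, MGST2 and MGST3, measured in granulosa cells of bovine dominant follicles. They were chosen by gene symbol among 15216 symbols of the EmbryoGENE bovine array and are read by 19 of its 43794 probes. Where a gene has several probes, the brightest one stands for it and the others are given beside it. The plateau group held 4 follicles and the growing group held 4 follicles, all over 9 mm in diameter, from ovaries of Holstein dairy cattle obtained at a slaughterhouse. Follicles were staged by flow cytometry of DNA content in their granulosa cells: plateau follicles had an intermediate score, with little mitosis and little atresia, and growing follicles had the highest score. Reproductive status and cycle stage of the animals are unknown, and no agent or genetic change was part of the design. Each plateau follicle was hybridised against a growing follicle on 2 arrays with the dyes exchanged, which gave 4 pairs, numbered here 1 to 4, on 8 arrays.

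Glutathione transferases join the tripeptide glutathione to reactive compounds, such as products of lipid peroxidation, so that they can be exported from the cell. The cytosolic enzymes fall into classes, among them alpha (GSTA), mu (GSTM), pi (GSTP) and omega (GSTO); GSTK1 is the kappa enzyme of mitochondria and peroxisomes, and the MGST genes encode a separate family of membrane proteins. In the ovary the alpha class is known from steroid-producing cells, and some alpha enzymes, best described for human GSTA3, also isomerise steroid intermediates. Granulosa cells surround the oocyte, convert androgen to oestradiol and divide less as the dominant follicle reaches its plateau.

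Values come in a pair of forms. A level is the normalised log2 intensity of a follicle, averaged over its Cy3 and Cy5 readings, and a ratio is the log2 of plateau over growing within a pair, so that a negative ratio means lower in plateau. Levels of different genes are not comparable, because probes differ in brightness. A reading was called above background when its raw intensity exceeded the mean plus 2 SD of the control spots of that array and dye, a threshold between 162 and 365 intensity units. By this measure 9 of the 10 genes were above background in all 16 readings, and MGST2 was above background in 8 of 8 plateau readings and 6 of 8 growing readings.

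The plateau follicle of pair 3 stood apart from the other 7 follicles. The summed level of a marker list is the log2 of its summed linear levels, so the brightest markers weigh most. For 9 granulosa cell markers it was 13.75 in that follicle, against 15.80 to 17.86 in the other plateau follicles and 15.95 to 17.77 in the growing follicles. The inhibin subunit genes INHA and INHBA, the brightest of these markers, were saturated in 8 and 7 of 16 readings, so differences among the higher sums are compressed. The summed level of 11 smooth muscle cell and fibroblast markers was 17.69 in it, against 13.15 to 14.36 in the other plateau follicles and 13.59 to 14.35 in the growing follicles. The summed level of 7 theca cell markers was also highest there, at 15.97, against 12.58 to 14.42 in the other follicles. This theca sum was carried by STAR, which shuttles cholesterol into mitochondria and had a level of 15.75; the theca-defining CYP17A1 and INSL3 had levels of 8.30 and 8.05 in that follicle and up to 9.23 and 9.81 in growing follicles. Leukocyte markers summed to 11.33 to 12.96 in plateau follicles and 11.34 to 11.68 in growing follicles, with 12.96 in plateau follicle 2 and 12.90 in plateau follicle 3. Endothelial (11.37 to 11.96 against 11.43 to 12.30), red blood cell (10.59 to 10.90 against 10.54 to 10.72) and oocyte markers (10.87 to 11.14 against 10.97 to 11.12) covered similar ranges in plateau and growing follicles. In such bulk samples fewer cells of a type and less RNA per cell cannot be told apart. Those of the 10 genes with their highest or lowest ratio in pair 3 are therefore given with and without that pair, as are the list genes with the widest ratios there, and the part of the cell type markers in these results was not tested.

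The choice of this family was made with the plateau over growing ratios in view, so the ratios are a description. By the criterion of the study (fold change over 1.5, unadjusted p below 0.05, log2 intensity averaging 7 or more), 1 of the 10 genes, GSTA1, was called, and it was lower in plateau. Over all gene symbols 1.11% met this criterion in either direction and 0.565% met it as lower in plateau. No probe of the whole array had an adjusted p under 0.05 (limma with Benjamini-Hochberg adjustment), the lowest being 0.99989, while 1169 probes (2.67%) had an unadjusted p under 0.05. The mean ratio was below 0 for 9 of the 10 genes, against 49% of all symbols. For 1 gene, again GSTA1, the ratio was below 0 in all 4 pairs, against 4.24% of all symbols. This count includes pair 2, where the GSTA1 ratio was -0.06 and its arrays had opposite signs. The median of the 10 mean ratios was -0.31, and that of all symbols was 0.0040. For all 10 genes the plateau and growing levels overlapped, and for 9 the SD among pairs was larger than the size of the mean ratio. No share over all symbols is given for the overlap and SD counts, so whether they set the family apart was not tested.

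**Figure D1:**
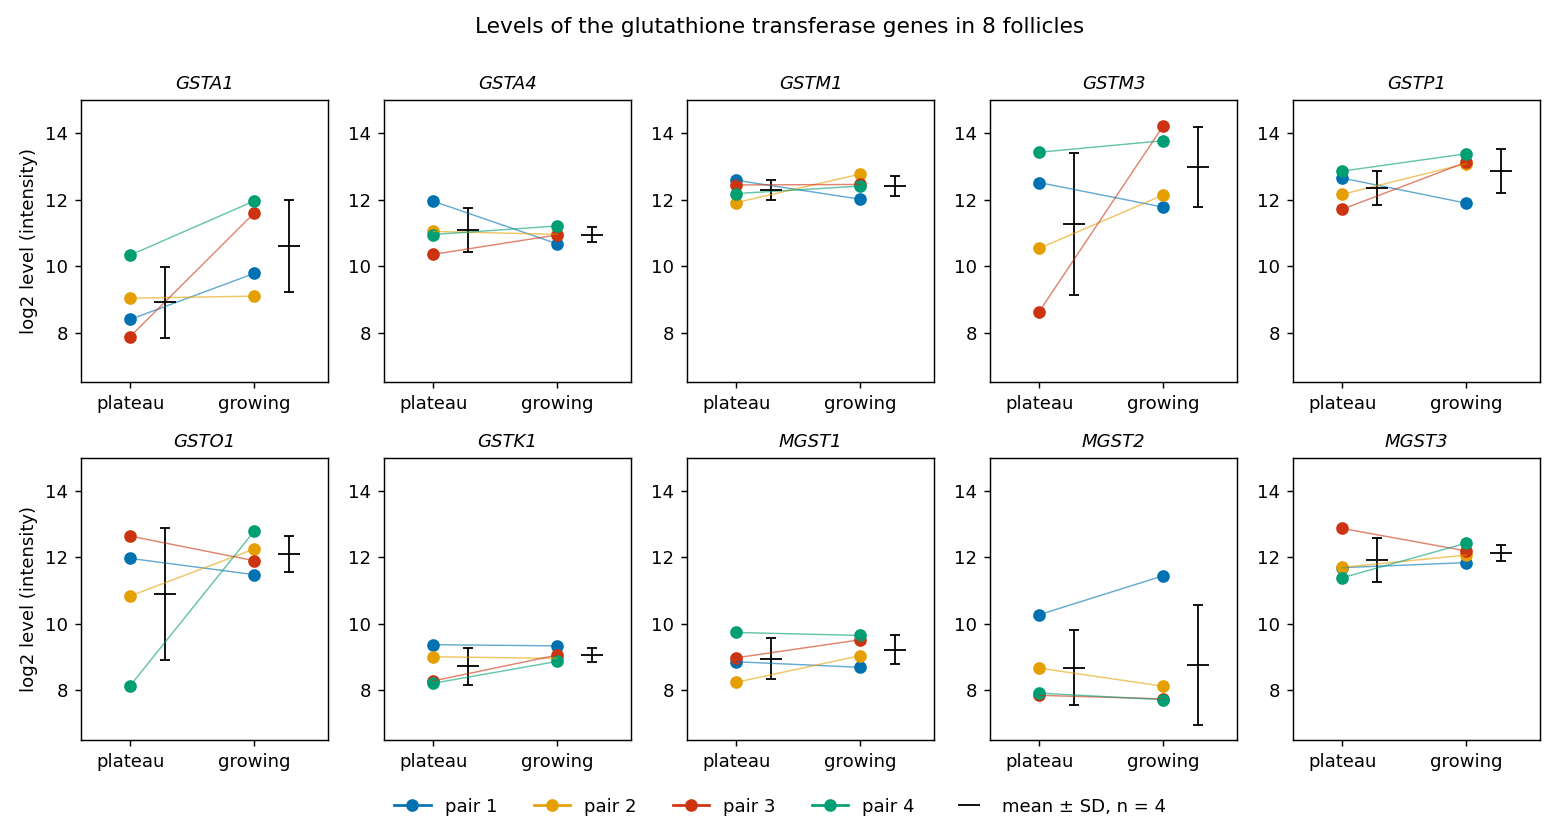
Normalised log2 level (vertical axis) of the 10 glutathione transferase genes in plateau (left) and growing (right) follicles; points are follicles, lines join the follicles of a pair, and black marks give the mean ± SD of 4 follicles. GSTM3 and GSTO1 spread widest among plateau follicles, from 8.64 to 13.43 and from 8.14 to 12.64.

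GSTA1, an alpha class enzyme, was the only one of the 10 whose pair ratio was below 0 in every pair, in pair 2 only just. Its level was 8.40, 9.04, 7.88 and 10.34 in plateau follicles 1 to 4, against 9.78, 9.10, 11.60 and 11.96 in growing follicles 1 to 4. Plateau follicles 1, 2 and 3 lay below every growing follicle, and plateau follicle 4 lay above growing follicles 1 and 2. The pair ratios were -1.38, -0.06, -3.72 and -1.63, which gave a mean of -1.70 ± 1.51 (SD, n = 4 pairs), a 3.25-fold lower level. Pair 2 showed almost no difference (1.04-fold), and its arrays disagreed in sign (0.02 on slide 1, -0.14 on slide 2), so it gave no clear direction. Pair 3 showed a 13.2-fold difference. The raw intensity in plateau follicle 3 was 214 in Cy5 and 259 in Cy3, against 3525 in Cy3 and 3135 in Cy5 for its growing partner. Both dye orientations thus gave the same direction. The plateau readings were near the background thresholds of their arrays (162 and 224), so the size of the difference is uncertain. Without pair 3 the mean ratio was -1.03 ± 0.84 (SD, n = 3 pairs), below 0 in 3 of 3 pairs if pair 2 is counted. The criterion was then no longer met. It was also not met without pair 1 (-1.80 ± 1.84) or without pair 4 (-1.72 ± 1.85), and was met without pair 2 (-2.25 ± 1.28).

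GSTA4, the alpha enzyme that handles 4-hydroxynonenal and related lipid aldehydes, had a mean ratio close to 0. Its level was 11.96, 11.05, 10.36 and 10.96 in plateau follicles and 10.68, 10.96, 10.94 and 11.21 in growing follicles. Plateau follicle 1 was the highest and plateau follicle 3 the lowest of the 8, with all growing follicles between them. Pair by pair, the ratios were 1.28, 0.09, -0.59 and -0.26, with a mean of 0.13 ± 0.82 (SD, n = 4 pairs) and of 0.37 ± 0.81 (SD, n = 3 pairs) without pair 3. A second GSTA4 probe with a mean level of 7.14 was above background in none of the 16 readings and gives no level of the gene.

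GSTM3, a mu class enzyme, had the widest range of the 10 genes. Its level was 12.52, 10.54, 8.64 and 13.43 in plateau follicles, against 11.78, 12.14, 14.22 and 13.78 in growing follicles. Plateau follicles 2 and 3 lay below all growing follicles, whereas plateau follicles 1 and 4 lay within the growing range. The spread was 27.8-fold among plateau follicles, 5.44-fold among growing follicles and 48.2-fold over all 8. The pair ratios were 0.74, -1.60, -5.59 and -0.35, and the mean was -1.70 ± 2.77 (SD, n = 4 pairs), the same size as for GSTA1 but with a larger error. Both arrays of pair 3 gave this low value, -5.56 on slide 1 and -5.62 on slide 2. Without pair 3 the mean ratio was -0.40 ± 1.17 (SD, n = 3 pairs), so most of the mean rested on that pair.

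GSTM1, the other mu enzyme, was among the steadiest members. Its level was 12.59, 11.92, 12.45 and 12.19 in plateau follicles, against 12.02, 12.78, 12.46 and 12.41 in growing follicles, a 1.82-fold range over all 8. Plateau follicle 2 was the lowest and its growing partner the highest. Ratios of the pairs were 0.57, -0.86, -0.02 and -0.22, with a mean of -0.13 ± 0.59 (SD, n = 4 pairs). Its 4 other probes were far dimmer, with mean levels of 7.75 to 8.11, and their mean ratios lay between -0.03 and 0.05. One of these, with a mean level of 8.11, was above background in all 16 readings, and the other 3 in 4 to 6 of 8 readings of a stage. The symbol GSTM1 stands for a pair of loci among other mu genes in the current bovine annotation (ARS-UCD2.0), and which copy each probe reads was not determined.

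GSTP1, the pi class enzyme, had 3 probes whose ratios had the same sign in each pair. By the brightest probe its level was 12.66, 12.17, 11.72 and 12.87 in plateau follicles, against 11.90, 13.09, 13.13 and 13.39 in growing follicles. Plateau was lower in pairs 2, 3 and 4 and higher in pair 1, where the growing follicle was lower than every follicle but plateau follicle 3. The pair ratios were 0.76, -0.92, -1.42 and -0.52, with a mean of -0.53 ± 0.93 (SD, n = 4 pairs) and of -0.23 ± 0.88 (SD, n = 3 pairs) without pair 3. The second probe gave 0.72, -0.92, -1.52 and -0.54 for the same pairs, and the third gave 0.66, -0.28, -1.08 and -0.50. Their means were -0.56 ± 0.95 and -0.30 ± 0.72 (SD, n = 4 pairs). All 3 probes were thus higher in pair 1 and lower in pairs 2 to 4. Without pair 1 the mean ratio by the brightest probe was -0.95 ± 0.45 (SD, n = 3 pairs), and GSTP1 then met the criterion of the study. GSTP1 also has a near copy next to it in the current annotation, and the probes were not assigned between them.

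GSTO1, the omega enzyme, which reduces rather than conjugates many of its substrates, had a single very low follicle. Its level was 11.97, 10.84, 12.64 and 8.14 in plateau follicles, against 11.48, 12.25, 11.90 and 12.79 in growing follicles. Plateau follicle 4 lay well below the other 7 follicles, which spanned 10.84 to 12.79. Its raw intensities were 275 in Cy5 and 434 in Cy3, against 7732 in Cy3 and 5448 in Cy5 for growing follicle 4. These plateau readings were near the background thresholds of their arrays (226 and 314), so the size of the difference is uncertain. Pair ratios of 0.49, -1.41, 0.74 and -4.65 gave a mean of -1.21 ± 2.49 (SD, n = 4 pairs), and the mean was -0.06 ± 1.18 (SD, n = 3 pairs) without pair 4 and -1.86 ± 2.60 (SD, n = 3 pairs) without pair 3. A second, dimmer probe had levels of 8.21, 7.97, 8.72 and 8.02 in plateau follicles, against 7.97, 8.22, 8.57 and 8.10 in growing follicles. Its pair ratios of 0.23, -0.25, 0.15 and -0.08 (mean 0.01 ± 0.22, SD, n = 4 pairs) covered a narrow range. It was above background in 7 of 8 plateau readings and 8 of 8 growing readings but near the threshold in every follicle, with raw intensities of 248 and 398 in plateau follicle 4, so it could not show a drop of that size.

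GSTK1 was dim and narrow in range. Its level was 9.37, 9.01, 8.28 and 8.21 in plateau follicles, against 9.34, 8.96, 9.06 and 8.87 in growing follicles. Pairs 1 and 2 hardly differed, with ratios of 0.03 and 0.05, and plateau was lower in pairs 3 and 4, with ratios of -0.78 and -0.66. The mean was -0.34 ± 0.44 (SD, n = 4 pairs), and -0.19 ± 0.41 (SD, n = 3 pairs) without pair 3.

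The membrane-bound enzymes had small mean ratios. MGST1, which has both transferase and peroxidase activity, had levels of 8.86, 8.24, 8.98 and 9.74 in plateau follicles, against 8.69, 9.04, 9.52 and 9.65 in growing follicles. Its pair ratios were 0.17, -0.80, -0.54 and 0.09, with a mean of -0.27 ± 0.48 (SD, n = 4 pairs), so that plateau was lower in pairs 2 and 3 only. MGST3 had levels of 11.69, 11.70, 12.88 and 11.39 in plateau follicles, against 11.84, 12.07, 12.20 and 12.43 in growing follicles. Unlike GSTA1, GSTM3 and GSTP1, MGST3 was highest of all in plateau follicle 3. Its pair ratios were -0.15, -0.37, 0.68 and -1.04, with a mean of -0.22 ± 0.71 (SD, n = 4 pairs) and of -0.52 ± 0.46 (SD, n = 3 pairs) without pair 3.

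MGST2, a membrane enzyme that can also conjugate leukotriene A4, differed between pairs rather than between stages. Its level was 10.28, 8.67, 7.85 and 7.91 in plateau follicles, against 11.45, 8.12, 7.74 and 7.72 in growing follicles. Both follicles of pair 1 were well above the other 6 follicles. The pair ratios were -1.17, 0.55, 0.11 and 0.20, with a mean of -0.08 ± 0.75 (SD, n = 4 pairs), and the mean was 0.28 ± 0.23 (SD, n = 3 pairs) without pair 1. A second MGST2 probe had levels of 8.72, 8.93, 8.31 and 8.68 in plateau follicles, against 8.58, 8.36, 8.64 and 8.50 in growing follicles, with a mean ratio of 0.14 ± 0.37 (SD, n = 4 pairs). It did not show the high level of pair 1.

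**Figure D2:**
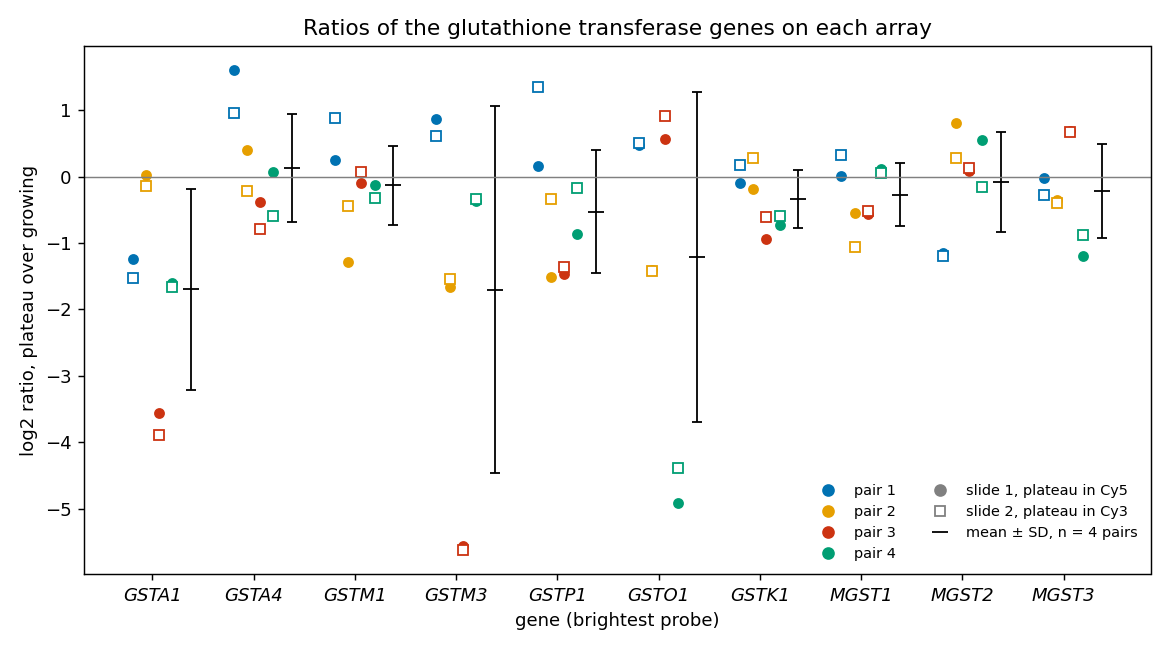
Log2 ratio of plateau over growing (vertical axis) of the brightest probe of each gene on each of 8 arrays; filled circles are slide 1 (plateau in Cy5), open squares slide 2 (plateau in Cy3), colours are pairs, and black marks give the mean ± SD of 4 pairs. For GSTM3 the arrays of a pair lie close together and the pairs far apart, from -5.59 to 0.74. For GSTP1 the arrays of a pair can lie far apart, as in pair 1 (0.16 and 1.35).

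The pairs differed from each other in how the family behaved. In pair 1 plateau was lower for 3 of the 10 genes and the median ratio was 0.33, whereas in pairs 2, 3 and 4 plateau was lower for 7, 7 and 8 genes with median ratios of -0.58, -0.56 and -0.44. Over all gene symbols the share lower in plateau ran from 46.1% in pair 1 to 51.8% in pair 4. The median SD among pairs was 0.78 for the 10 genes, against 0.33 for all symbols and 0.67 for symbols with a mean level of at least 9, a level that 8 of the 10 genes reached. For 6 of the 10 genes the SD among follicles was larger in plateau than in growing, with no share over all symbols given beside it. Plateau follicle 3 held the lowest level of 4 genes (GSTA1, GSTA4, GSTM3 and GSTP1) and plateau follicle 4 that of 3 genes (GSTO1, GSTK1 and MGST3).

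Arrays of the same follicles mostly differed less than follicles did, but not for every gene. The deviation of an array from the mean of its dye-swap pair had a median of 0.13 and a maximum of 0.59 over the 10 genes and 4 pairs. The full gap between the arrays of a pair is larger than this deviation. For GSTP1 the arrays gave 0.16 and 1.35 in pair 1, and -1.51 and -0.34 in pair 2. A difference between the dyes, which cancels in the mean of a dye-swap pair and is independent of stage, was called for 2 of the 10 genes, GSTA4 with 0.29 higher in Cy5 (adjusted p = 0.0066, limma) and GSTP1 with a Cy5 over Cy3 value of -0.39 (adjusted p = 0.0050, limma). Such a difference was called for 22.8% of all probes. As a result the mean GSTA4 ratio was 0.42 on slide 1 and -0.16 on slide 2, and the mean GSTP1 ratio was -0.92 on slide 1 and -0.13 on slide 2. The other GSTP1 probes had no called dye difference and gave -0.50 and -0.20 on slide 1, against -0.63 and -0.40 on slide 2.

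**Figure D3:**
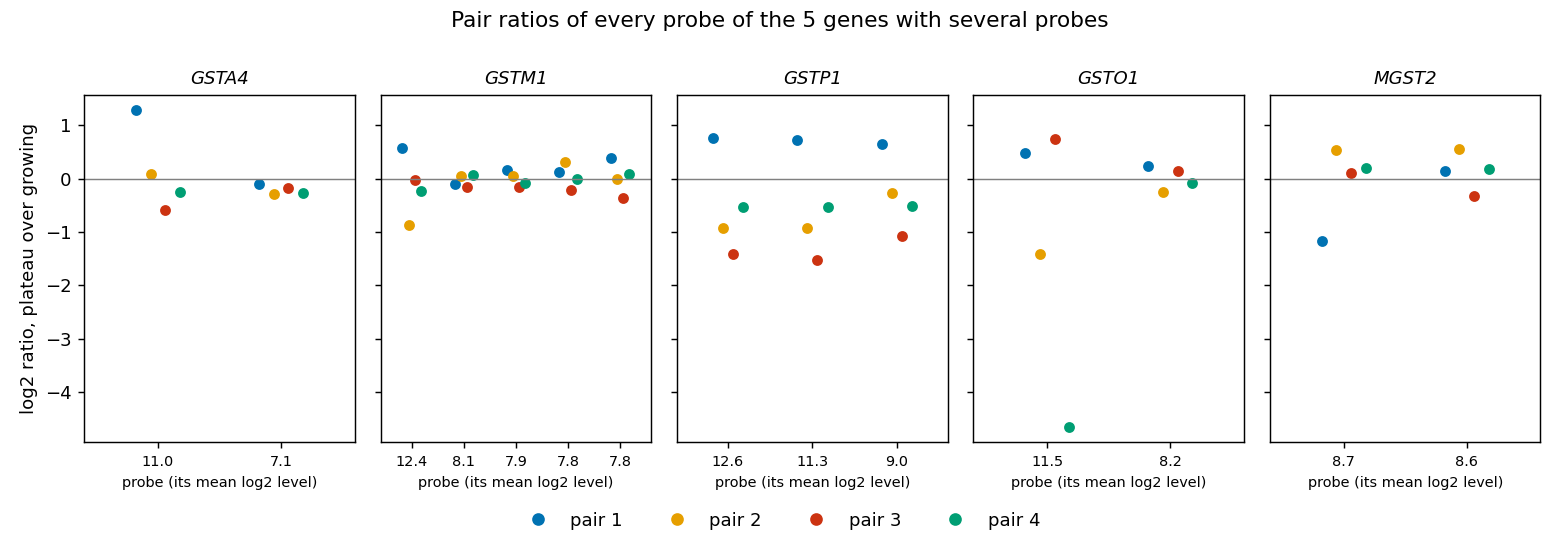
Log2 ratio of plateau over growing (vertical axis) by pair (colours) for every probe of the 5 genes with several probes, ordered by mean log2 level (horizontal axis). The 3 GSTP1 probes are all above 0 in pair 1 and below 0 in pairs 2 to 4, while the value of -4.65 in pair 4 of GSTO1 and of -1.17 in pair 1 of MGST2 appear in the brightest probe alone.

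The levels of the genes were compared with each other over the 8 follicles after removing the mean of each stage, so that the stage difference did not enter. None of the 45 gene pairs was correlated at an adjusted p under 0.05 (exact permutation test within stages, two-sided, lowest adjusted p = 0.234), and 3 had an unadjusted p under 0.05. The smallest p that this permutation test can give with 8 follicles is 0.0017. A single gene pair could therefore not pass adjustment over 45 pairs, and the lack of a call does not show that the genes vary independently. The highest correlation was that of GSTM3 and GSTP1, with Pearson's r of 0.81 (exact permutation p = 0.0069) and Spearman's rho of 0.86 (exact permutation p = 0.021, adjusted 0.410), and r was 0.73 without plateau follicles 3 and 4, the farthest from the median of GSTM3. GSTK1 with MGST2 gave an r of 0.73 (exact permutation p = 0.010, adjusted 0.234) and a rho of 0.64 (exact permutation p = 0.052, adjusted 0.410), and r was 0.67 without the 2 farthest follicles. GSTA1 with GSTM3 gave an r of 0.75 (exact permutation p = 0.049, adjusted 0.690) and a rho of 0.81 (exact permutation p = 0.037, adjusted 0.410), and r was 0.61 without the 2 farthest follicles. The remaining pairs spread to both sides, 25 of the 45 coefficients being positive and the lowest being -0.65 for GSTK1 and MGST1.

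GSTM3 and GSTP1 shared their 3 lowest follicles with the granulosa cell markers, a feature chosen after the values were seen. These were plateau follicles 2 and 3 and growing follicle 1, in which the granulosa markers summed to 15.80, 13.75 and 15.95. The same 3 follicles were lowest for 6.59% of the 5812 symbols with a mean level of at least 9, and for 2 of the 10 transferases. The aromatase gene CYP19A1, one of these markers, had levels of 15.42, 7.96, 8.70 and 15.84 in plateau follicles, against 11.94, 8.04, 15.76 and 14.80 in growing follicles. CYP19A1 did not follow the marker sum everywhere, since growing follicle 2, with 8.04, had a granulosa sum of 16.95. The 3 lowest follicles of GSTA1 were plateau follicles 1, 2 and 3, of which plateau follicles 2 and 3 were also among the lowest for the granulosa markers. In plateau follicle 1 GSTA1 had 8.40 and the granulosa sum was 17.85. The part of granulosa cell content in the GSTA1, GSTM3 and GSTP1 levels was not tested.

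**Figure D4:**
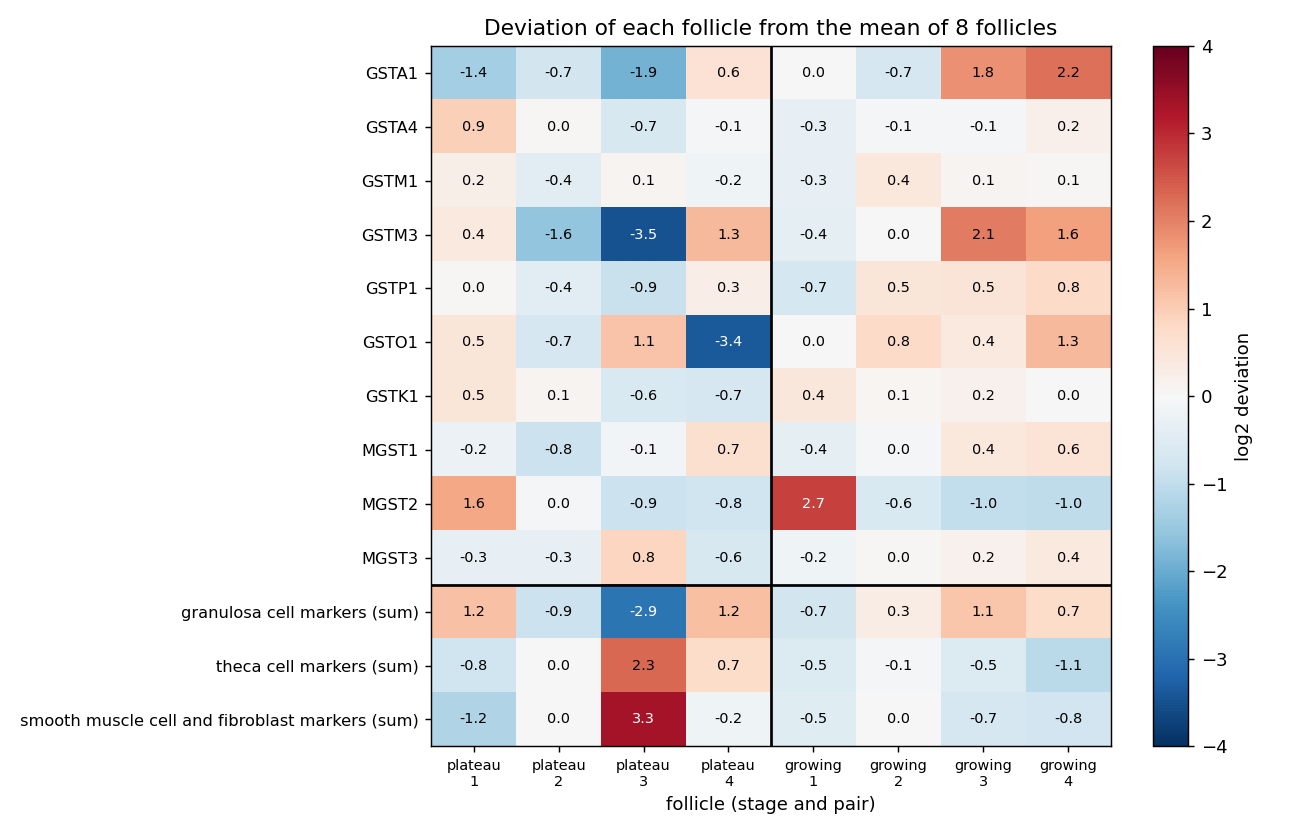
Deviation of each follicle from the mean of all 8 follicles (colour and printed value, log2) for the 10 genes and for the summed levels of 3 cell type marker lists, with plateau follicles left of growing follicles. Plateau follicle 3 combines the lowest levels of GSTA1 (7.88) and GSTM3 (8.64) with the lowest granulosa sum (13.75) and the highest smooth muscle and fibroblast sum (17.69).

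The symbols whose level followed each gene most closely over the 8 follicles, among some 5811 symbols with a mean level of at least 9, were named as a description. They share libraries and normalisation with the gene they follow. For GSTM3 they were NUDT14 (r = 0.96), GJA1 (r = 0.96), the main gap junction connexin of granulosa cells, and MFSD14A (r = 0.95). For GSTP1 they were ACTR10, NPRL2 and ITPA (r = 0.97 each), and for GSTA1 they were ZFPL1, ZFAND2B and MED29 (r = 0.93 each). GJA1 had a mean ratio of -0.65 ± 2.27 (SD, n = 4 pairs), with a spread among pairs like that of GSTM3. The closest symbol was FOXK2 for GSTA4 (r = 0.98), AHSA1 for GSTM1 (r = 0.97), TMEM50A for GSTO1 (r = 0.94) and KRT6A for GSTK1 (r = 0.96). For the membrane enzymes it was UBE2N for MGST1, GDPD5 for MGST2 and CIAO2A for MGST3 (r = 0.97 each). Next came CRTAP and PLEKHH1 for GSTA4, ARL6IP5 and SLC35B1 for GSTM1, DDX27 and TEX11 for GSTO1, RAI2 and ATRAID for GSTK1, HIST1H2BN and POLR2E for MGST1, WIPF1 and ERAP1 for MGST2, and SNX3 and NDUFB6 for MGST3, with r between 0.92 and 0.97.

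Other genes of the family on the array gave no call over all 4 pairs. Of 12 further transferases and related membrane enzymes measured, 5 had a mean ratio above 0 and 7 below 0, with a median of -0.04. GSTA5 lies beside GSTA1 in the bovine alpha cluster, next to GSTA2 and GSTA3, and was very bright. Its level was 15.98, 13.60, 11.04 and 15.66 in plateau follicles, against 13.88, 15.80, 15.96 and 15.99 in growing follicles. The 3 lowest follicles were again plateau follicles 2 and 3 and growing follicle 1. One of 8 plateau readings and 3 of 8 growing readings were saturated, so the differences among its highest levels are compressed. Its pair ratios were 2.09, -2.20, -4.92 and -0.33 (mean -1.34 ± 2.97, SD, n = 4 pairs), which were lowest in pair 3, as for GSTA1, and ran the other way from GSTA1 in pair 1. Without pair 3 the mean was -0.15 ± 2.16 (SD, n = 3 pairs). Whether probes of these neighbouring alpha genes read each other's transcripts was not determined. GSTCD (-0.32 ± 0.42), the theta enzyme GSTT1 (0.30 ± 0.70) and the leukotriene C4 synthase LTC4S (0.12 ± 0.39) stayed within their spread (SD, n = 4 pairs), and GSTT2 was above background in no reading. Without pair 3 the mean was -0.08 ± 0.04 for LTC4S and -0.52 ± 0.19 for GSTCD (SD, n = 3 pairs). GSTT1 met the criterion, as higher in plateau, without pair 2 (0.65 ± 0.18, SD, n = 3 pairs), and with no other pair left out.

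The genes that make and recycle glutathione also gave no call. Of 10 genes measured, 4 had a mean ratio above 0 and 6 below 0, with a median of -0.18. GCLC and GCLM, the catalytic and modifier subunits of the rate-limiting glutamate-cysteine ligase, had mean ratios of -0.59 ± 1.32 and -0.59 ± 1.25 (SD, n = 4 pairs). For GCLC the low value lay in pair 3 (-2.54), with 0.07, -0.23 and 0.33 in pairs 1, 2 and 4, and the mean without it was 0.06 ± 0.28 (SD, n = 3 pairs). For GCLM it lay in pair 2 (-2.13), with 0.76, -0.99 and 0.00 in pairs 1, 3 and 4. The mean ratio was 0.09 ± 0.10 for glutathione synthetase, GSS, and 0.08 ± 0.27 for the cystine transporter gene SLC7A11.

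Among 13 genes of glutathione breakdown, 9 had a mean ratio above 0 and 4 below 0 (median 0.05), and LAP3 met the criterion. LAP3 encodes leucine aminopeptidase, which can cleave the cysteinylglycine left when glutathione is degraded. Its level was 10.16, 10.78, 11.21 and 10.03 in plateau follicles, against 9.30, 9.61, 9.63 and 9.71 in growing follicles. Every plateau follicle was above every growing follicle, with no share over all symbols given beside it. LAP3 was named because it met the criterion, which favours such a separation. Ratios were 0.86, 1.17, 1.58 and 0.32, a mean of 0.98 ± 0.53 (SD, n = 4 pairs). Without pair 3 the mean was 0.78 ± 0.43 (SD, n = 3 pairs) and the criterion was still met, but no gene of this list had an adjusted p under 0.05.

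Export and mercapturate genes numbered 7 measured, of which 4 had a mean ratio above 0 and 3 below 0 (median 0.01) with no call. ACY1, which deacetylates mercapturates, was higher in plateau in all 4 pairs (0.47 ± 0.17, SD, n = 4 pairs) but under the fold threshold, and was above background in 8 of 8 plateau readings and 2 of 8 growing readings. The mean ratio was 0.30 ± 1.13 for the transporter gene ABCG2 (-0.19 ± 0.66 without pair 3), -0.09 ± 0.84 for CCBL1 (0.26 ± 0.57 without pair 3) and -0.05 ± 0.69 for ABCC5.

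Of 8 glyoxalase and glutaredoxin genes, 2 had a mean ratio above 0 and 6 below 0 (median -0.05) with no call. Glutaredoxins reduce mixed disulfides with glutathione, and GLRX had ratios of -1.59, -0.86, 3.51 and 0.26, so that it was high in plateau follicle 3, where GSTM3 was low. The means were 0.33 ± 2.25 for GLRX, 0.07 ± 0.38 for GLO1, -0.15 ± 1.02 for GLRX2 and -0.49 ± 0.81 for GLRX5 (SD, n = 4 pairs). Without pair 3 they were -0.73 ± 0.93 for GLRX, -0.60 ± 0.58 for GLRX2 and -0.09 ± 0.20 for GLRX5 (SD, n = 3 pairs).

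Of 22 other detoxification genes, 10 had a mean ratio above 0 and 12 below 0 (median -0.03), none meeting the criterion over all 4 pairs. The largest mean ratios above 0 were those of ALDH1A1, a retinal dehydrogenase (0.99 ± 1.76, with 3.61 in pair 2) and ALDH3A2 (0.25 ± 0.54), and the largest below 0 were those of the epoxide hydrolase gene EPHX2 (-0.65 ± 1.36) and KEAP1 (-0.45 ± 0.59), which encodes the repressor of the antioxidant factor NRF2 (SD, n = 4 pairs). ALDH1A1 was above background in 6 of 8 plateau readings and 3 of 8 growing readings, and its mean without pair 2 was 0.12 ± 0.26 (SD, n = 3 pairs). Without pair 3 the mean was -0.25 ± 1.35 for EPHX2 and -0.17 ± 0.27 for KEAP1 (SD, n = 3 pairs). EPHX2 met the criterion without pair 1 (-1.24 ± 0.82, SD, n = 3 pairs). Of 12 steroid synthesis genes 7 were above 0 and 5 below 0 (median 0.06), and STAR met the criterion with ratios of 1.47, 0.29, 4.29 and 2.50 (mean 2.14 ± 1.69, SD, n = 4 pairs). The STAR levels were 10.84, 12.10, 15.75 and 13.53 in plateau follicles, against 9.37, 11.81, 11.46 and 11.03 in growing follicles. STAR and GSTA1 both met the criterion, in opposite directions, so opposite signs across the pairs follow largely from that. The largest difference of each lay in pair 3, and a link between them was not tested. Without pair 3 STAR had a mean ratio of 1.42 ± 1.10 (SD, n = 3 pairs) and still met the criterion, which it did not without pair 4 (2.02 ± 2.05, SD, n = 3 pairs).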

How the data were processed

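Amplified granulosa cell RNA (825 ng per dye) of 4 plateau and 4 growing follicles was hybridised to 2-colour arrays. The authors excluded spots under debris by hand and deposited raw spot intensity values; they also deposited log2 ratios of Cy5 over Cy3 made in FlexArray (background subtraction, loess within arrays, quantile between arrays), which the intensities reproduce. Ratios were turned to plateau over growing, and the 2 dye-swap arrays of a slide position were averaged. The 4 pair values were tested against 0 with lmFit and eBayes (limma 3.58.1, R 4.3.3) over 43794 probes with Benjamini-Hochberg adjustment. Positions pair the arrays, since arrays of the same position correlated in their deviations from the slide mean (r 0.77 to 0.88), those of different positions at -0.44 to -0.13. The number of arrays limits the precision. Follicle levels were computed from the intensities by the same steps. Named were all 10 genes, list genes that met the criterion or else had the largest mean ratios either way, and the 3 symbols most correlated with each gene. Members and lists were chosen with earlier results of these data known. Alternatives covered normexp correction (offset 50), no quantile step, no loess, each slide, single pairs left out, intensity minimums and all probes of a gene. Gene symbols came from the platform annotation for 21790 probes; names of 1524 were updated. No probe sequence was used here. The code was tested on simulated data.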

Additional observations from a re-analysis of the deposited data

Results flagged for a closer look

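MGST2 in growing follicle 1 stood far from the other growing follicles. Its level there was 11.45, against 7.72 to 8.12 in growing follicles 2 to 4. This was the only extreme value among 30 groups of 4 values tested (the plateau levels, growing levels and pair ratios of the 10 genes). Chance flags about 1 in 20 such groups, so 1 flag among 30 is not beyond chance. Growing follicles 3 and 4 each had a reading below its background threshold (196 against 214, and 266 against 321). The plateau partner of growing follicle 1, on the same arrays, had 10.28. The second MGST2 probe gave 8.36 to 8.64 in growing follicles and did not show it. The cause was not tested.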

How the results depend on the processing

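Of 184 alternative values, 9 moved past the replicate spread or past 1.5 times the main count. Of 120 alternative mean ratios of single genes, 11 had the other sign, in 4 genes (below); as leaving out 1 of 4 pairs or modelling the block can move a mean little by construction, the ranges rather than the spread are given. The 313 probes that met the criterion became 742 with no replicate block (8 arrays taken as independent), 697 with the slide position as a random replicate block and a dye term, 1047 on slide 1 only and 889 on slide 2 only, and 331 to 1551 with one pair left out (1551 without pair 1, 825 without pair 2). GSTA1 alone met the criterion in each of these fits except that GSTP1 joined it on slide 1 only (2 genes), and with one pair left out the count was 0 to 1 (GSTP1 without pair 1, GSTA1 without pair 2, 0 without pair 3 and without pair 4). Over 12 settings the mean ratio ran from -2.25 to -1.03 for GSTA1, from -2.51 to -0.40 for GSTM3, from -1.86 to -0.06 for GSTO1 and from -0.95 to -0.13 for GSTP1, and it crossed 0 for GSTA4 (-0.25 to 0.42), GSTM1 (-0.37 to 0.11), MGST2 (-0.29 to 0.28) and MGST3 (-0.52 to 0.05). Dim readings of MGST2 limit its growing levels.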
